A study of Mus musculus with 9 samples.

Results

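The proteasome is the barrel-shaped protease that destroys proteins tagged with ubiquitin. Its core particle is a stack of rings made of alpha and beta subunits, and the beta subunits encoded by Psmb5, Psmb6 and Psmb7 carry the cutting sites. A regulatory particle, built of a base with a ring of ATPases and a lid that strips ubiquitin from the substrate, feeds proteins into the core. In blood cells, and after interferon, the catalytic subunits can be replaced by Psmb8, Psmb9 and Psmb10, and the activator of Psme1 and Psme2 can cap the core; this immunoproteasome makes peptides for MHC class I. Hematopoietic stem cells are known to be sensitive to disturbed protein turnover, and Socs2 itself is a substrate receptor of a ubiquitin ligase.

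The genes described here are those whose array symbol starts with Psma, Psmb, Psmc, Psmd or Psme followed by a number. They were 45 of the 19057 genes that had a probe with 1 symbol. Of these, 43 encode subunits, chaperones or activators of the proteasome: 16 of the core, 22 of the regulatory side and 5 of the immunoproteasome. The other two, Psmc3ip and Psme3ip1, only bear the name of a proteasome gene as a partner and are kept apart.

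Expression was measured on 9 Illumina mouse bead arrays of LSK cells (lineage-negative, Sca-1-positive, Kit-positive cells, the bone-marrow fraction that holds stem cells and early progenitors). All arrays are of male C57BL/6 mice, 12 weeks old, given 150 µg/g of 5-fluorouracil, a drug that kills cycling cells, 6 days before sacrifice. The groups are wild type (wt, 5 arrays) and Socs2-/- (4 arrays, called the knockout here), so the treatment is shared by all of them and no untreated array is among them. RNA of 250 pg per sample was amplified before labelling, and whether an array stands for a separate mouse or for pooled animals is not stated in the labels, so the p-values measure the spread between arrays, which may be partly technical. The sources used here do not give what part of Socs2 was removed, or in which cells.

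A gene was tested when a probe read above 7.5 on the deposited log2 scale on at least 4 of 9 arrays, which left 8543 genes. Knockout arrays 1 and 2 stood apart: 31.1% and 31.0% of their probes read above 7.5, against 34.3% to 35.4% on the other arrays. Of the genes whose median over arrays was above 9, these arrays read 17.0% and 22.3% at or below 7.5, against 0.669% to 4.54% elsewhere. Results are therefore also given without them. The targeted gene checked the labels: the Socs2 probe in the fit read 9.38 to 10.36 on wild-type arrays and 6.58 to 6.80 on knockout arrays. Of the LSK marker genes, 8 were tested and none differed between genotypes at an unadjusted p under 0.05 (limma). The smallest p were those of Cd34 (log2 difference 0.82), Procr (0.93) and Slamf1 (-1.40). Their limma adjusted p were 0.497, 0.518 and 0.533, so a match of the genotypes in these markers is not shown. Slamf1 read above 7.5 on 3 wild-type arrays and 1 knockout array. Ly6a is not analysed here, and Kit read 6.84 on knockout array 2 against 7.94 to 11.23 elsewhere. In a sorted population read in bulk, fewer cells of a type and less RNA per cell cannot be told apart.

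Proteasome genes were detected broadly. Of the 43 genes, 39 were tested, and 30 of these read above 7.5 on all 9 arrays; among all genes tested 33.6% did so. No member passed the minimum through 1 genotype alone. The 4 genes not tested were Psma3, Psma8, Psmb11 and Psme2. The alpha-ring gene Psma3 (6.54 to 7.40) and the activator gene Psme2 (6.70 to 7.37) each had 1 probe, which stayed at or below 7.5 on every array and gives only a bound. Psmb11, the thymus form of a catalytic subunit, read 7.23 to 7.39 on wild-type arrays and 7.75, 7.54, 7.34 and 7.57 on knockout arrays 1 to 4. For Psma8, the testis form of an alpha subunit, the brighter of 2 probes read 9.67 on wild-type array 4, 7.71 on knockout array 2 and 6.99 to 7.21 on the others.

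No proteasome gene passed limma's adjusted threshold of 0.05, the smallest adjusted p being 0.454, where 0.0117% of all genes (1 of 8543) did. The gene that passed was Socs2, the targeted gene itself (limma adjusted p = 0.0362). At an unadjusted p under 0.05, Psmd1 and Psmd14 (2 genes) were lower in the knockout and 0 were higher. That is 5.13% of the members lower, against 7.87% of all genes lower and 2.29% higher. Only Psmd1 had every knockout array below every wild-type array, a pattern found in 2.72% of all genes, and no member had the opposite pattern, found in 0.983%. The proteasome genes were thus called at about the rate of the background.

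The differences between genotypes were small and lay on both sides of 0. The median log2 difference (knockout minus wild type) over the 39 genes was -0.03, with 16 genes above 0 and 23 below, beside a median of -0.18 over all genes tested, of which 59.5% were below 0. Centring each array on its median moved the median of all genes to -0.06. With only probes above 7.5 on all 9 arrays, the median of all genes was -0.03. In that set the core genes had -0.12, the regulatory genes -0.09 and the immunoproteasome genes 0.01. Differences under 0.5 in size were found in 29 of the 39 genes (74.4%) and in 48.5% of all genes. Among genes read above 7.5 on all arrays, the shares were 24 of 30 (80.0%) and 63.4%. The median standard error was 0.42 for the members and 0.58 for all genes. Among genes read above 7.5 on all arrays it was 0.41 and 0.45.

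**Figure D1:**
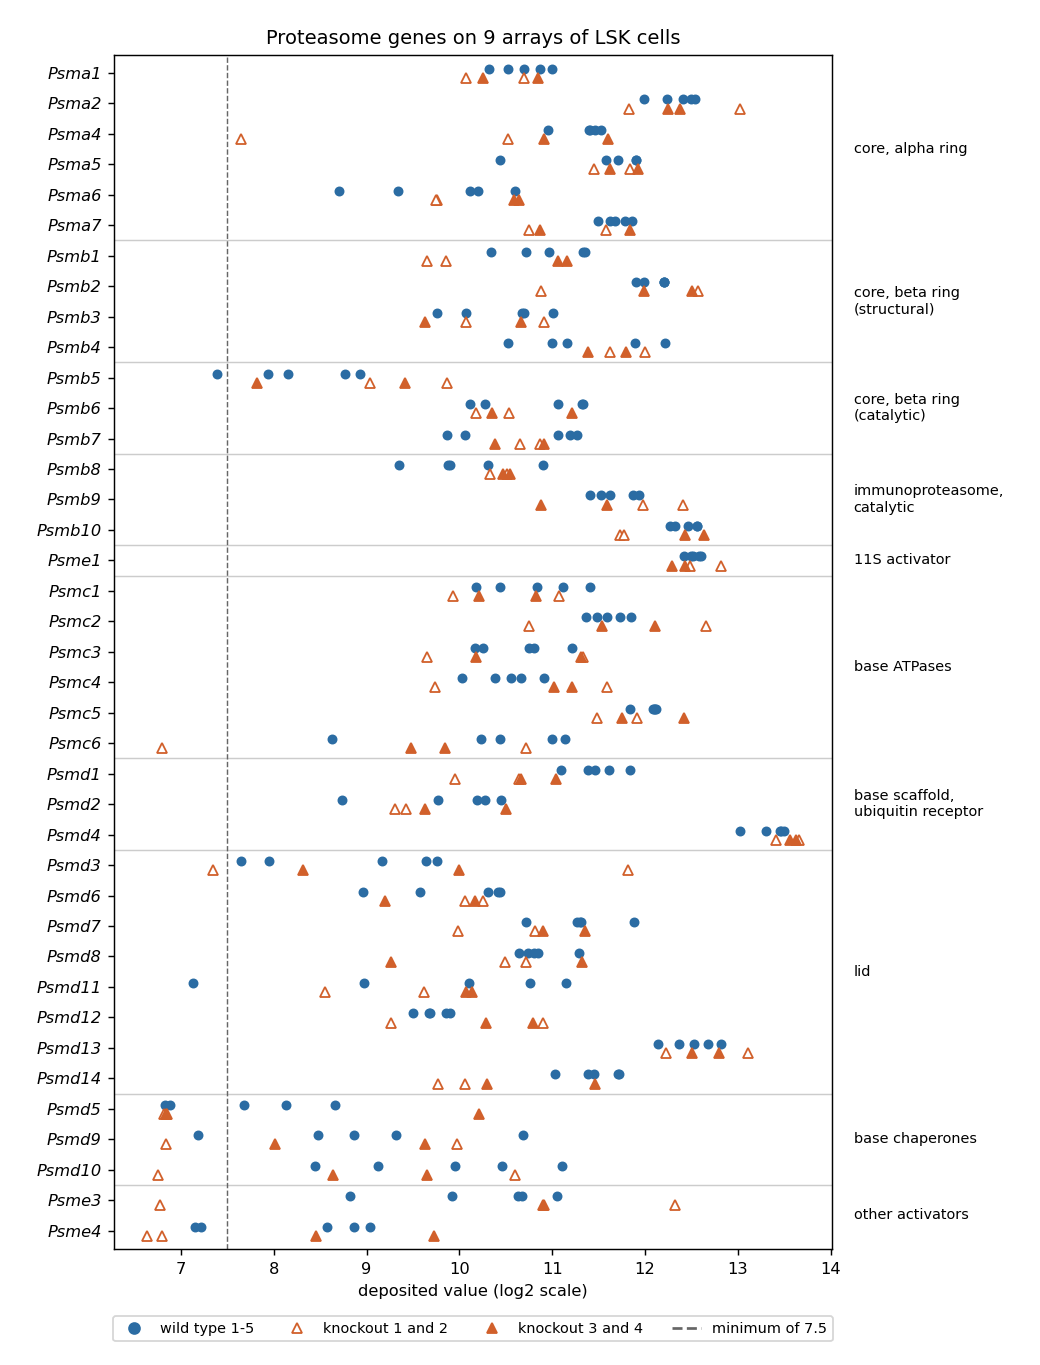
Deposited log2 values of the 39 tested proteasome genes, grouped by role, with a point for each array: circles for the 5 wild-type arrays, triangles for the 4 knockout arrays (open for knockout arrays 1 and 2). Only in Psmd1 do all triangles lie left of all circles, and the dashed line marks the minimum of 7.5; brightness differs between probes, so rows are not to be ranked against each other.

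**Figure D2:**
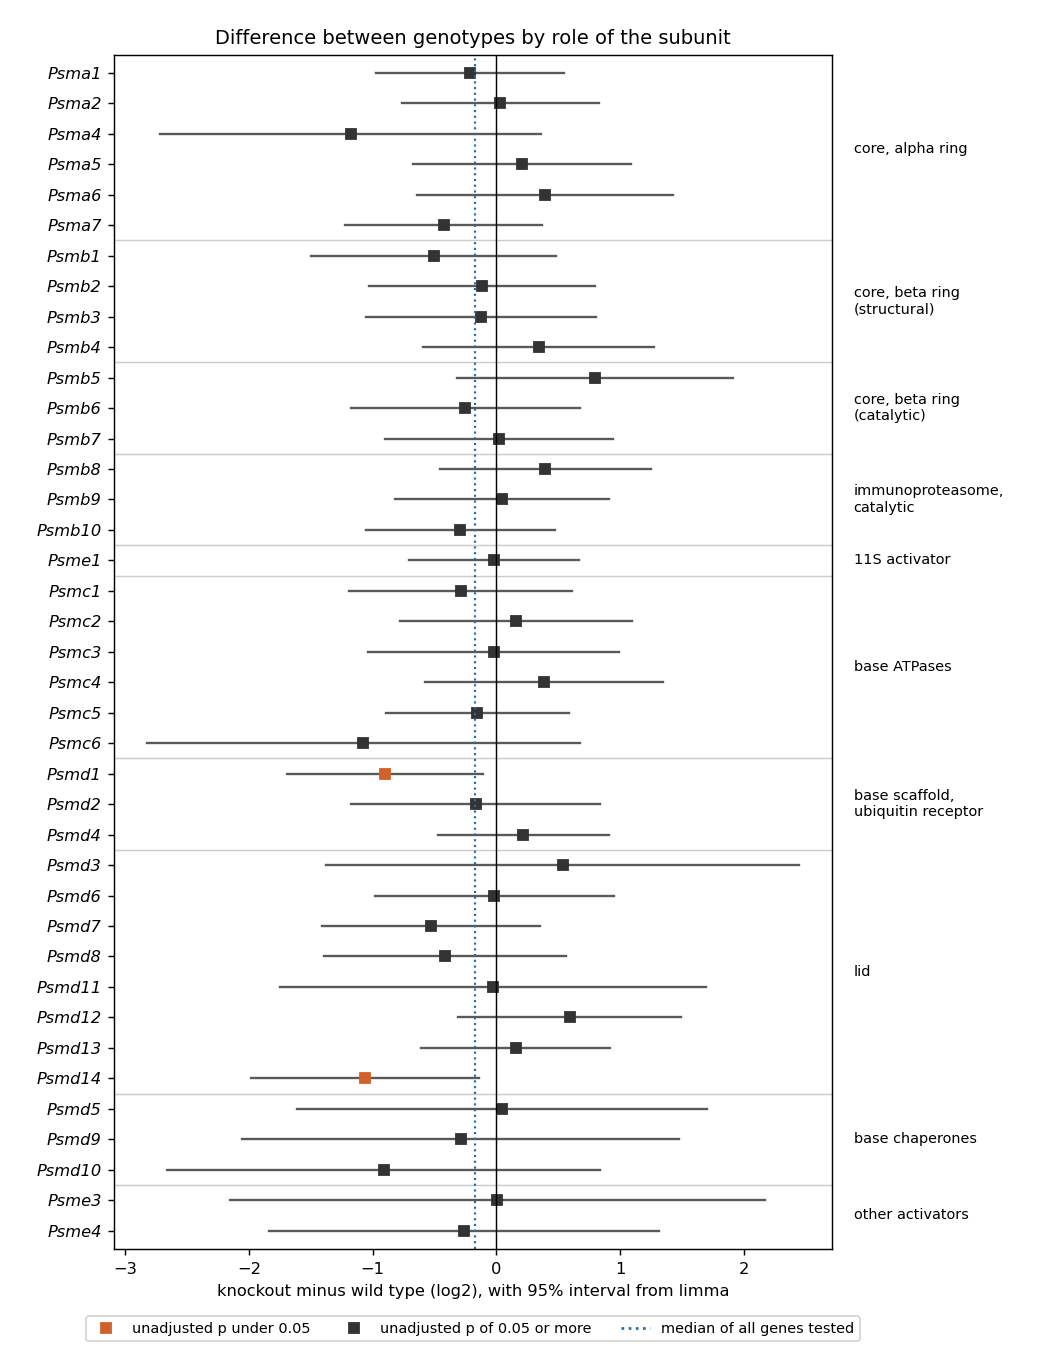
Log2 difference, knockout minus wild type, of the 39 genes with the 95% interval from limma. The intervals of Psmd1 and Psmd14 (orange) lie below 0, all others include 0, and the dotted line is the median of all 8543 genes at -0.18.

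The members with an unadjusted p under 0.05 belong to the regulatory particle. Psmd1 (Rpn2) is the large scaffold of the base that holds the ubiquitin receptor Adrm1. Its probe read 11.84, 11.61, 11.39, 11.10 and 11.46 on wild-type arrays 1 to 5, and 9.95, 10.64, 11.04 and 10.67 on knockout arrays 1 to 4. The genotypes did not overlap, although knockout array 3 lay within 0.1 of wild-type array 4, and knockout array 1 was the lowest. The log2 difference was -0.90 (95% interval -1.69 to -0.11, limma adjusted p = 0.456). The exact two-sided permutation test gave 0.0159, the smallest p that 5 against 4 arrays allow. This value follows from the lack of overlap and adds nothing to it.

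Psmd14 (Rpn11) is the metalloprotease of the lid that removes ubiquitin chains as the substrate enters. It read 11.39, 11.71, 11.03, 11.71 and 11.45 on wild-type arrays and 9.77, 10.07, 11.46 and 10.29 on knockout arrays. Knockout array 3 lay among the wild-type arrays, and the other three lay below all of them. The log2 difference was -1.06 (95% interval -1.98 to -0.14, limma adjusted p = 0.454). The exact two-sided permutation test gave 0.0635.

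The calls of Psmd1 and Psmd14 at an unadjusted p under 0.05 were not met by their other probes, nor without knockout arrays 1 and 2. Leaving out wild-type array 2 alone also removed both calls. The other Psmd14 probe had -0.74 (limma adjusted p = 0.603). For Psmd1 the other probes had -0.64 (limma adjusted p = 0.573) and 0.14 (limma adjusted p = 0.963), the last reading 6.77 on knockout array 1 and 12.30 on knockout array 2. Without knockout arrays 1 and 2 the difference was -0.62 for Psmd1 (limma adjusted p = 0.872) and -0.58 for Psmd14 (limma adjusted p = 0.910). No member was then lower at an unadjusted p under 0.05, and Psmd12, a lid subunit, was higher (log2 difference 0.82, limma adjusted p = 0.740), where 3.44% of all genes were lower and 2.96% higher in that fit.

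**Figure D3:**
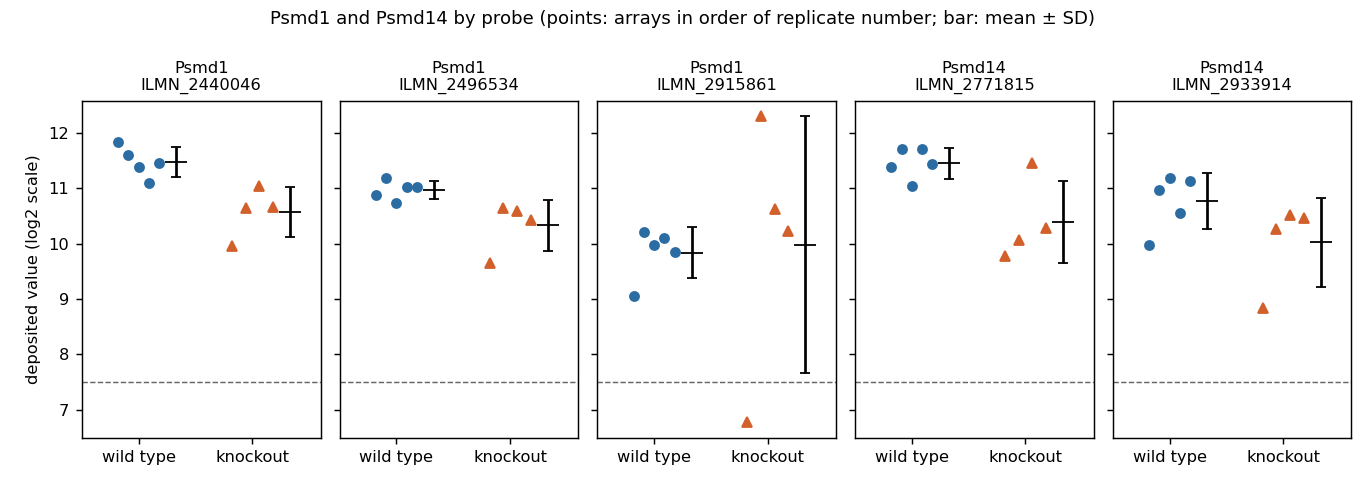
Deposited log2 values of every passing probe of Psmd1 (3 probes) and Psmd14 (2 probes), with a point for each array and the mean ± SD of each genotype. In 4 of the 5 probes the knockout mean lies below the wild-type mean, by 0.64 to 1.06, and in ILMN_2915861 knockout arrays 1 and 2 lie at the extremes, 6.77 and 12.30.

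The sequence upstream of 3 regulatory genes is shown because these are the members that stood out in the full set of arrays or without the low ones. The sequences are RefSeq's for GRCm38.p6, read on the plus strand and ending at the base before the annotated start, in lower case with a motif match in capitals. Psmd1 (chr1:86064499-86064618) holds no match of a searched motif in the stretch shown, Psmd14 (chr2:61711574-61711693) holds a pair of GC boxes, and Psmd12 (chr11:107479451-107479527) holds an ETS-family motif, read here on the strand opposite to CCGGAAG. These contrasts depend on the stretch shown. In the longer promoter windows described below, all 3 genes held a GC box. Psmd14 also held a CCAAT box there, and Psmd12 an antioxidant response element.
Psmd1: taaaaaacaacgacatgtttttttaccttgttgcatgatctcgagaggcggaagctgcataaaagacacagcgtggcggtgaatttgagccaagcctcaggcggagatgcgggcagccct
Psmd14: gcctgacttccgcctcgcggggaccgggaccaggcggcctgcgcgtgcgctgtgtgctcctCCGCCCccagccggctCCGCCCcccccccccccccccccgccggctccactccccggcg
Psmd12: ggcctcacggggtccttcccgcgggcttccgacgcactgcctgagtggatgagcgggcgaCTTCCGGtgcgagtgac

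Across the members, 36 of the 43 genes had a promoter window, from 250 bases before the start to 50 after it, and 9 motifs were searched on both strands. The ETS motif CCGGAAG was found in 12 of the 36 genes (33.3%) and in 8.86% of all 32851 windows. The GC box GGGCGG was found in 22 genes (61.1%) and in 35.7% of all windows, and the CCAAT box (CCAAT) in 14 genes (38.9%) and 37.4%. The antioxidant response element TGACNNNGC, to which the proteasome regulators Nfe2l1 and Nfe2l2 bind, was found in 6 genes (16.7%: Psmb5, Psmb6, Psmc6, Psmd12, Psmd9 and Psme4) and in 12.4% of windows. The interferon response core GAAANNGAA was found in 6 genes (16.7%, Psme1 among them) and 8.56% of windows. The STAT motif TTCNNNGAA was found in 2 genes (5.56%, Psmb8 and Psmd2) and 8.30%, and the AP-1 motif TGACTCA in 1 gene (2.78%, Psmd9) and 5.20%. The cAMP response element TGACGTCA (1.79% of windows) and the NF-kB motif GGGANTTCC (1.68%) were in none of the 36. The shares are descriptions of the letters in these windows, and some genes have more than 1 window.

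Among the 13 tested core genes, 6 lay above 0 and 7 below, with none under an unadjusted p of 0.05 in either direction. Their median log2 difference was -0.11, which turned to 0.0015 after centring of the arrays and ran from -0.24 to 0.074 with single arrays left out, the ends being those of knockout arrays 1 and 4. In the alpha ring, which gates the entry to the core, Psma4 had the largest difference in size of the 39 tested members, -1.18 (95% interval -2.71 to 0.36). Its probe read 10.95, 11.41, 11.52, 11.39 and 11.46 on wild-type arrays and 7.65, 10.53, 10.91 and 11.60 on knockout arrays. Knockout array 1 alone lay far below, and without it the difference was -0.33. Without knockout array 4 the difference was -1.65 and had an unadjusted p under 0.05. The other tested alpha genes, Psma1, Psma2, Psma5, Psma6 and Psma7, ran from -0.43 (Psma7) to 0.39 (Psma6).

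In the beta ring, the structural gene with the smallest p was Psmb1. It read 10.97, 10.34, 11.33, 10.72 and 11.35 on wild-type arrays and 9.66, 9.86, 11.06 and 11.16 on knockout arrays. Knockout arrays 1 and 2 lay below every wild-type array and the other two within them, giving -0.51 (limma adjusted p = 0.690). Psmb2 had -0.11, Psmb3 -0.12 and Psmb4 0.34.

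The 3 constitutive catalytic genes had differences from -0.25 to 0.80, none with an unadjusted p under 0.05. Psmb5, which carries the chymotrypsin-like site, read 8.93, 7.39, 7.94, 8.76 and 8.16 on wild-type arrays and 9.04, 9.86, 9.42 and 7.82 on knockout arrays. Knockout arrays 1 to 3 lay above all wild-type arrays and knockout array 4 below 4 of them, for a log2 difference of 0.80 (95% interval -0.32 to 1.91, limma adjusted p = 0.595). Without knockout array 4 it was 1.203 and had an unadjusted p under 0.05, and without knockout array 2 it was 0.52. Psmb6, which carries the caspase-like site, read 10.11, 11.34, 11.07, 10.28 and 11.32 on wild-type arrays and 10.54, 10.18, 11.21 and 10.36 on knockout arrays. These values overlapped throughout, with a difference of -0.25 (95% interval -1.17 to 0.67).

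Psmb7, which carries the trypsin-like site, read 9.87, 11.06, 10.06, 11.19 and 11.26 on wild-type arrays and 10.65, 10.87, 10.92 and 10.39 on knockout arrays. The knockout arrays all lay inside the wild-type range, and the difference was 0.02 (95% interval -0.90 to 0.94). Its 4 probes gave 0.02, 0.05, -1.31 (ILMN_1233153, limma adjusted p = 0.461) and 1.02 (ILMN_2836147), so a direction for this gene rested on the probe. ILMN_2836147 read 7.21 to 7.74 on wild-type arrays and 7.55 to 9.22 on knockout arrays. Its knockout arrays alone met the minimum, which favours a higher value there, so its limma p is not given.

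No tested immunoproteasome gene differed between genotypes at an unadjusted p under 0.05 (limma). The 4 tested genes had a median log2 difference of 0.01, which was 0.13 after centring of the arrays. All 4 differences were under 0.5 in size, and all 4 read above 7.5 on every array. Psmb8, the immune counterpart of Psmb5, read 10.31, 10.91, 9.88, 9.90 and 9.35 on wild-type arrays and 10.33, 10.52, 10.54 and 10.47 on knockout arrays. The knockout arrays lay close together inside the wild-type range, with a difference of 0.40 (95% interval -0.45 to 1.25).

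Psmb9, the counterpart of Psmb6, read 11.87, 11.62, 11.52, 11.93 and 11.41 on wild-type arrays and 12.41, 11.98, 11.59 and 10.88 on knockout arrays. Knockout arrays lay above, within and below the wild-type range, for a difference of 0.04 (95% interval -0.82 to 0.91). Psmb10, the counterpart of Psmb7, read 12.33, 12.27, 12.56, 12.46 and 12.56 on wild-type arrays and 11.73, 11.78, 12.43 and 12.63 on knockout arrays. Its difference was -0.29 (95% interval -1.05 to 0.47), came from knockout arrays 1 and 2, and was 0.10 without them; its other probe had 0.41.

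Psme1, a subunit of the activator that caps the core, read 12.60, 12.52, 12.42, 12.50 and 12.59 on wild-type arrays and 12.48, 12.82, 12.43 and 12.29 on knockout arrays. These values overlapped, and the difference was -0.02 (95% interval -0.71 to 0.66). A log2 difference of 1 in either direction lay outside the intervals of Psmb9 and Psme1. The swap of a constitutive for an immune subunit was read as the difference within each array, of which only the change between genotypes has a meaning, because probes differ in brightness. For Psmb8 minus Psmb5 it was 1.83 ± 0.99 (SD, n = 5 wild-type arrays) and 1.43 ± 0.85 (SD, n = 4 knockout arrays). For Psmb9 minus Psmb6 it was 0.85 ± 0.80 and 1.14 ± 0.80, and for Psmb10 minus Psmb7 1.75 ± 0.67 and 1.44 ± 0.60. Each change, -0.40, 0.30 and -0.31, was smaller than the SD of single arrays within either genotype. That SD is not the error of a difference of means, and the changes were not tested. The last change also rests on the probes chosen, since Psmb10 and Psmb7 each had probes on both sides of 0.

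Markers of monocytes and dendritic cells, which are rich in immunoproteasome, were present in both genotypes. Of 10 such markers, 9 were tested, and their mean level per array was 9.78 to 11.35 in wild type and 9.94 to 11.27 in the knockout. Of these, 7 lay below 0, with a median log2 difference of -0.33. Over all genes 59.5% lay below 0, with a median of -0.18. The differences were -1.29 for Adgre1, -0.96 for H2-Aa, -0.55 for H2-Ab1 and -0.44 for Cd74. Nearer to 0 were Itgax (-0.33), Lyz1 (-0.21), Lyz2 (-0.10) and Siglech (0.03). Csf1r, the receptor for M-CSF, lay the other way at 1.46 and was the marker with an unadjusted p under 0.05 (limma adjusted p = 0.317), and Cd14 did not pass the minimum. Of the B and T cell markers, Ms4a1 stayed at or below 7.5 on every array, and the 5 tested had mean levels of 8.29 to 9.57 in wild type and 8.21 to 9.38 in the knockout. Of the granulocyte markers 3 were tested, none with an unadjusted p under 0.05, and Elane stayed at or below 7.5. Of the erythroid markers 2 were tested. Hba-a1 read above 7.5 on all 4 knockout arrays (8.92 to 13.32) and on 1 wild-type array (9.10), the other wild-type arrays being at 6.84 to 7.30. Hbb-bt read 10.82 to 11.80 on wild-type arrays and 10.34 to 13.20 on knockout arrays. These values overlapped, with a difference of 0.51 (limma adjusted p = 0.752). The part of these cells in the values above was not tested.

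**Figure D4:**
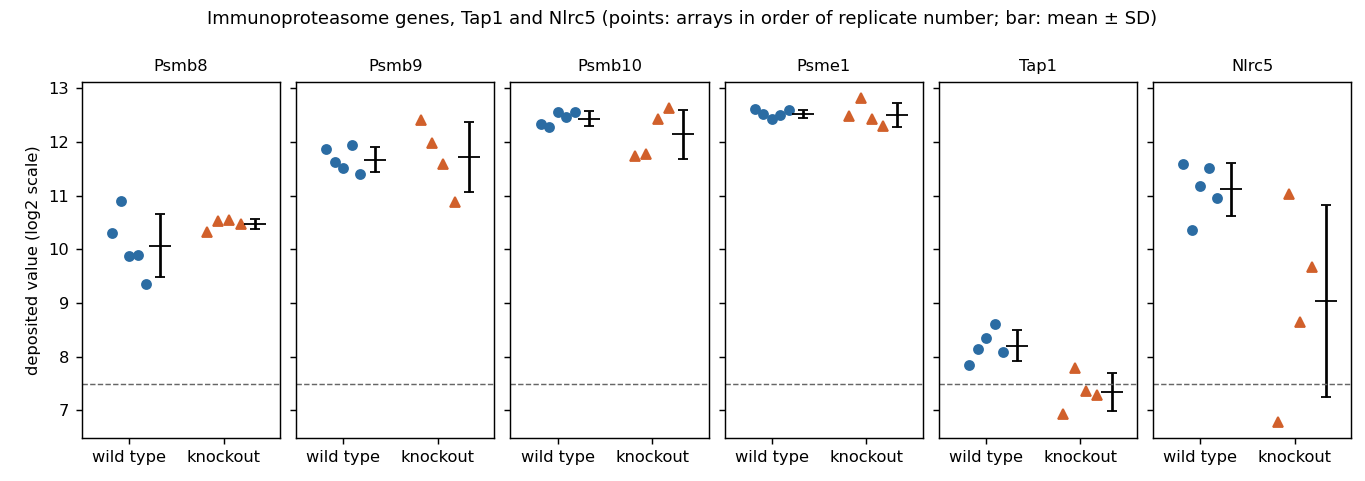
Deposited log2 values of the 4 tested immunoproteasome genes and of Tap1 and Nlrc5, with a point for each array and the mean ± SD of each genotype; the dashed line marks 7.5. The proteasome genes overlap between genotypes, all 4 knockout arrays of Tap1 (6.93 to 7.78) lie below its wild-type arrays (7.84 to 8.62), and the knockout arrays of Nlrc5 spread from 6.79 to 11.04.

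Psmb8 and Psmb9 lie beside the peptide transporter genes Tap1 and Tap2 in the MHC region of chromosome 17, in the order Psmb9, Tap1, Psmb8, Tap2. Psmb9 and Tap1 point away from each other, and the 225 bases between their starts are known as their common promoter; they are shown because its genes are set side by side below. The stretch is chr17:34187331-34187555 of GRCm38.p6, plus strand, with a CCAAT box and a GC box in capitals. For Psmb8, 100 bases upstream are shown with the STAT motif in capitals (chr17:34198058-34198157, plus strand), since SOCS proteins act on JAK-STAT signalling; a match of letters is not a bound site.
Psmb9 to Tap1: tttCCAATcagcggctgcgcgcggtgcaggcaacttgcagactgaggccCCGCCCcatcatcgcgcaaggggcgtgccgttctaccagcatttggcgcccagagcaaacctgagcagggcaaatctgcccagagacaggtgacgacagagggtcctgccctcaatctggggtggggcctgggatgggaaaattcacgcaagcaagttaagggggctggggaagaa
Psmb8: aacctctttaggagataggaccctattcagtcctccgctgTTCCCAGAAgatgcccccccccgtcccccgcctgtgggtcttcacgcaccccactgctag

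Tap1, which carries peptides made by the proteasome into the endoplasmic reticulum, read 7.84, 8.15, 8.34, 8.62 and 8.08 on wild-type arrays and 6.93, 7.78, 7.36 and 7.29 on knockout arrays. The genotypes did not overlap, and knockout array 2 was the only knockout array above 7.5, so the difference rests on values near the minimum. The log2 difference was -0.86 (limma adjusted p = 0.456). Without knockout arrays 1 and 2, both knockout values left lay at or below 7.5. Psmb9, on the other side of the shared stretch, had the 0.04 given above. Whether the differences of these genes differ from each other was not tested.

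Of 14 tested genes of antigen processing, 2 were lower and 1 was higher at an unadjusted p under 0.05; the median was -0.12, and 10 genes lay below 0. Over all genes 7.87% were lower, 2.29% higher and 59.5% below 0. Beside Tap1 the lower gene was Nlrc5, the transactivator of MHC class I genes, which is known to induce Psmb9 and Tap1. It read 11.58, 10.35, 11.17, 11.51 and 10.96 on wild-type arrays and 6.79, 11.04, 8.64 and 9.67 on knockout arrays. Knockout array 2 lay among the wild-type arrays and the other three below them, for a difference of -2.08 (limma adjusted p = 0.415), which was -1.96 without knockout arrays 1 and 2. Erap1, which trims the peptides after transport, had 1.08 (limma adjusted p = 0.490) and 1.48 without these arrays.

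The 22 regulatory genes had a median log2 difference of -0.09, with 8 above 0 and 14 below, and it turned to 0.02 after centring of the arrays. It was 0.12 when knockout arrays 1 and 2 were left out, -0.32 when knockout array 3 was left out and -0.04 when knockout array 1 was. Leaving out wild-type array 1 gave -0.23, and leaving out wild-type array 4 gave -0.15. Psmd1 and Psmd14 made 2 of 22 (9.09%) lower at an unadjusted p under 0.05, close to the 7.87% of all genes. Of the 6 base ATPases, which unfold the substrate, Psmc6 had the smallest p. It read 10.23, 10.997, 8.63, 11.14 and 10.43 on wild-type arrays and 10.72, 6.80, 9.48 and 9.84 on knockout arrays. Knockout array 2 alone lay below 7.5, and the difference was -1.07 (95% interval -2.82 to 0.67), or -0.27 without that array; its other probe had -1.19. The other ATPase genes, Psmc1 to Psmc5, ran from -0.29 (Psmc1) to 0.38 (Psmc4).

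In the base beside Psmd1, the scaffold gene Psmd2 had -0.17 and the ubiquitin receptor gene Psmd4 had 0.22 (95% interval -0.47 to 0.91), among the tightest intervals of the members. The lid held genes on both sides of 0 beside Psmd14, with Psmd7 at -0.53, the non-catalytic partner of the Psmd14 protein, Psmd8 at -0.42 and Psmd6 at -0.02. Psmd11 had -0.03, Psmd13 0.15, Psmd3 0.54 and Psmd12 0.59. Psmd12 read 9.85, 9.50, 9.67, 9.90 and 9.68 on wild-type arrays and 9.27, 10.90, 10.28 and 10.80 on knockout arrays. Knockout array 1 lay below all wild-type arrays and the other three above. Its other probe had 1.64 (limma adjusted p = 0.430).

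The base chaperones, which guide assembly and leave the finished particle, were dim or erratic, and none of the 3 read above 7.5 on all arrays. Psmd10 (gankyrin) read 8.44, 11.11, 9.13, 10.46 and 9.95 on wild-type arrays and 6.75, 10.60, 9.65 and 8.64 on knockout arrays. Knockout array 1 was the low value, and the difference of -0.91 (95% interval -2.66 to 0.84) became -0.19 without that array; the other probes had -0.53 and 0.17. Psmd9 had -0.29, and Psmd5 had 0.04 but read above 7.5 on knockout array 3 alone of the knockout arrays.

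The activators outside the immunoproteasome were Psme3 (PA28 gamma, in the nucleus) and Psme4 (PA200). Psme3 spread from 6.78 on knockout array 2 to 12.32 on knockout array 1, so its difference of 0.01 had an interval of -2.15 to 2.17. Psme4 read 7.22, 9.04, 8.57, 7.15 and 8.87 on wild-type arrays and 6.80, 6.64, 8.46 and 9.73 on knockout arrays, overlapping, with a difference of -0.26. The dimmer Psme4 probe (ILMN_1230087) read 7.71, 8.47, 8.29, 8.71 and 8.90 on wild-type arrays and 6.92, 7.31, 7.13 and 6.81 on knockout arrays. Every wild-type array lay above 7.5 and every knockout array at or below it. Counting knockout arrays at 7.5 gives a 1.89-fold lower signal in the knockout. This probe passed the minimum through its wild-type arrays alone, which favours a lower value in the knockout. Nothing is therefore read from that fold, and the limma p of this probe is not given. The Psme4 probes thus disagreed on knockout arrays 3 and 4.

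Across all 66 passing probes of the 39 genes, none passed the adjusted threshold, and 0 of all 13333 named probes did. At an unadjusted p under 0.05, 4 member probes were lower (Psmd1, Psmd14, Psmb7 and Psme4) and 2 were higher (Psmb7 and Psmd12), where 8.07% of all probes were lower and 2.21% higher. The Psme4 probe among them entered through wild type alone, which favours a lower value in the knockout. For the higher Psmb7 probe the knockout arrays alone met the minimum, which favours a higher value there. Nothing is therefore read from these counts. Of the 21 genes with several passing probes, 11 had all their probes on the same side of 0 and 10 had probes on both sides.

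The arrays differed in how far the members scattered. The SD of the 39 genes' deviations from their own means over 9 arrays was 0.96 on knockout array 1 and 1.12 on knockout array 2, against 0.47 to 0.64 on the other arrays. For all genes tested it was 1.25 and 1.35, against 0.74 to 0.95. On knockout array 1, 10 of the 39 genes lay more than 1 from their mean, on knockout array 2 9 did, and on the others 1 to 5 did. Of the 35 members with a median above 9, knockout array 1 read Psmd10 and Psmd3 at or below 7.5, knockout array 2 read Psmc6 and Psme3 there, and wild-type array 3 read Psmd11 there. That is 5.71% on each of the low arrays, beside the 17.0% and 22.3% of all such genes.

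The classes had different medians on the low arrays. On knockout array 1 the median deviation of the regulatory genes was -0.73, of the core genes -0.05 and of the immunoproteasome genes 0.02, with -0.24 over all genes. On knockout array 2 these medians were -0.05, -0.30 and 0.28, with -0.39 over all genes. Knockout array 3 had 0.38, 0.27 and 0.02, and 0.10 over all genes.

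**Figure D5:**
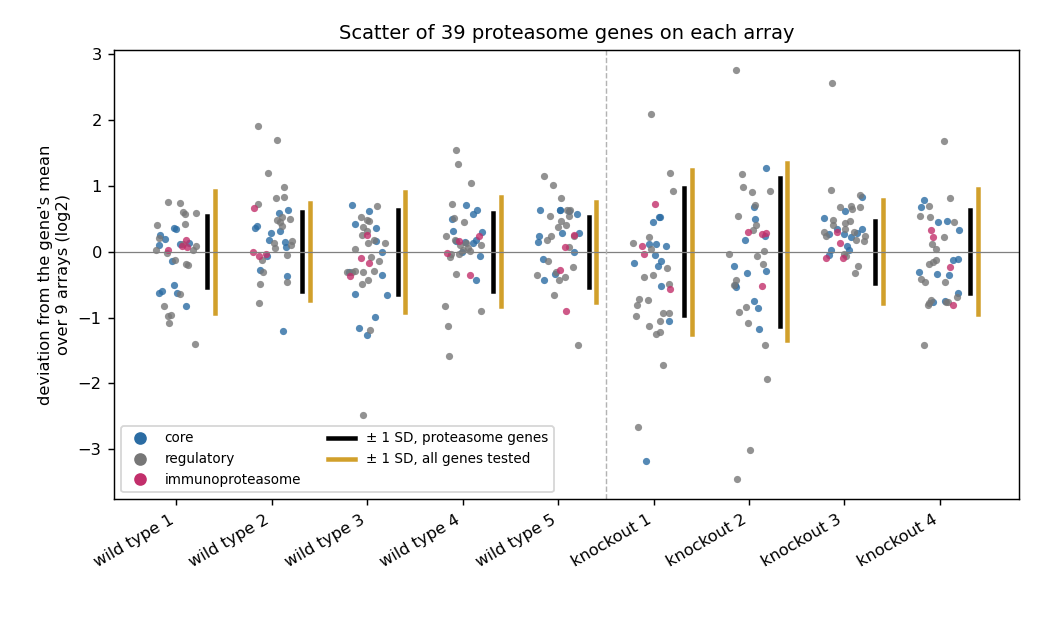
Deviation of each of the 39 proteasome genes from its mean over 9 arrays (log2), by array, coloured by class, with bars of ± 1 SD for these genes (black) and for all 8543 genes (yellow). Knockout arrays 1 and 2 have the longest bars (0.96 and 1.12), and on every array the black bar is shorter than the yellow.

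Genes that assemble, supply or regulate the proteasome were taken as a list of 39 names, of which 25 had a probe with 1 symbol and 21 were tested. At an unadjusted p under 0.05, 1 was lower and 0 were higher, and 16 of the 21 lay below 0, with a median log2 difference of -0.37 beside -0.18 over all genes, of which 7.87% were lower, 2.29% higher and 59.5% below 0. The lower gene was Rad23b, a shuttle that carries ubiquitinated proteins to the proteasome. It read 12.27, 12.00, 11.51, 11.85 and 11.54 on wild-type arrays and 9.47, 10.32, 11.71 and 10.63 on knockout arrays. Knockout array 3 lay among the wild-type arrays and the others below, for a difference of -1.30 (limma adjusted p = 0.415), which was -0.66 without knockout arrays 1 and 2 (limma adjusted p = 0.900). Nfe2l1, the transcription factor that raises proteasome genes when the proteasome is inhibited, had -0.45 (limma adjusted p = 0.727), and its relative Nfe2l2 had -0.60 (limma adjusted p = 0.704); both are given for their role and not by the rule for named genes.

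The 2 genes that only bear a proteasome gene's name were Psmc3ip, a meiotic recombination factor, at 0.18, and Psme3ip1, a partner of Psme3, at -0.37. Neither had an unadjusted p under 0.05 (limma).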

How the data were processed

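The authors deposited processed values on a log2 scale for 45281 probes on 9 arrays; the submitters' processing notes name lumi. Its version, the background correction, the transformation and the normalization are each not given in the sources used. Genotype and replicate number came from the sample titles. A non-normalized table was not used, since its 18 per-array columns carry chip positions that no label ties to a sample; chip effects were therefore not tested.

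Probes were named from the platform annotation (34885 had 1 symbol), and all 45 members matched RefSeq by Entrez ID. A probe entered when above 7.5 on at least 4 arrays, and the probe with the highest mean stood for its gene. Genotypes were compared with limma 3.58.1 in R 4.3.3 (lmFit and eBayes, two-sided, no covariate, Benjamini-Hochberg over all 8543 genes) and, for single genes, an exact two-sided permutation test over 126 splits. The code was tested on simulated data. With 9 arrays, precision is limited by their number.

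The members, the lists of partners and markers, and the rule for named genes were chosen with earlier results of these data known. That rule takes the immunoproteasome genes, Psmb5, Psmb6 and Psmb7, members with an unadjusted p under 0.05 or with genotypes that do not overlap, and the member with the smallest p in each role. Psmd12, the dimmer Psme4 probe and other members were given beyond it after their values were seen. Alternatives covered the filter, scaling, probe choice, the replicate block, array weights, the variance model and left-out arrays.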

Additional observations from a re-analysis of the deposited data

Results flagged for a closer look

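Of 78 groups of values examined (39 genes in each genotype), 4 held an array far from the others, where chance gives about 1 in 20. Psma4 read 10.95 on wild-type array 1, with the nearest wild-type array at 11.39. Psma5, another alpha subunit, read 10.43 on wild-type array 3, with the nearest at 11.58. Psmc5, a base ATPase, read 11.83 on wild-type array 5, with the nearest at 12.09. Psmd5, a base chaperone, read 10.21 on knockout array 3, with the nearest knockout array at 6.85 and all others of that genotype below 7.5.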

How the results depend on the processing

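No alternative gave a proteasome gene with a limma adjusted p under 0.05. The count of genes lower at an unadjusted p under 0.05 (2) became 1 with arrays centred on their medians and with the mean of a gene's passing probes, and 0 with the replicate block, with array weights and without both knockout arrays 1 and 2. With single arrays left out it ran from 0 to 2, being 0 without wild-type array 2 and without knockout array 1. Without knockout array 4 the 2 genes were Psmd1 and Psma4. The count of higher genes (0) became 1 with the mean of passing probes and without both knockout arrays 1 and 2, and ran from 0 to 1 with single arrays left out. The immunoproteasome median (0.01) was 0.13 with centred arrays and ran from -0.086 to 0.19 with single arrays left out.

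Some differences changed sign, those near 0 and also the larger ones of Psmd1, Psmd10 and Psmb1. Psme1 had 0.092 with centred arrays, 0.069 with the mean of probes and 0.16 with its other probe. Psmb10 had 0.061 with the mean of probes, 0.10 without knockout arrays 1 and 2, and 0.41 with its other probe. Psmb7 had -0.056 with the mean of probes, -0.14 with array weights, -0.036 without knockout arrays 1 and 2, and -1.31 with another probe. Psmb9 had -0.021 with the replicate block, -0.093 with array weights and -0.44 without knockout arrays 1 and 2. Psme4 had 0.025 with array weights and 0.93 without knockout arrays 1 and 2, and Psmb1 had 0.17 without them. Psmd1 had 0.14 and Psmd10 0.17 with another probe. With single arrays left out, Psmb7 ran from -0.19 to 0.16, Psmb9 from -0.19 to 0.32, Psme1 from -0.13 to 0.048 and Psme4 from -0.87 to 0.16. The cause was not tested.

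The labels do not say whether same-numbered arrays belong together. Same-numbered arrays deviated with correlations of 0.02, -0.05, -0.07 and 0.04, which does not settle it. The wild-type array with the highest correlation was the same-numbered one for knockout arrays 1 and 4. For knockout arrays 2 and 3 it was another. The block, which leaves out wild-type array 5, gave no further call. Values near 7.5 are close to background, so differences of dim genes may be understated. A reading near background on 1 array can also enlarge a difference. Psmc6 had -1.07 with all arrays and -0.27 without knockout array 2. The fit of single probes was chosen after seeing the data.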
